A study of Homo sapiens with 9 samples.

Results

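A set of 10 genes of the transforming growth factor beta (TGF-beta) pathway was followed in HT1080 cells, an established human fibrosarcoma line, during treatment with a mixture of protease inhibitors. They are the ligand genes TGFB1, TGFB2 and INHBA, the receptor genes TGFBR1, TGFBR2 and TGFBR3, the signal carrier SMAD3, the inhibitors SMAD7 and SKIL, and the target gene TGFBI. They were chosen by name, with earlier results of these data known, and every probe set annotated to exactly 1 of them was taken. That gave 10 genes out of 19775, measured by 28 of the array's 54675 probe sets. Of the 28, 23 had a mean intensity of at least 16 over the 9 arrays and 5 lay below it.

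Each array measured the RNA of cells seeded on top of a thick gel of fibrillar bovine collagen (1.7 mg/ml) that had set for 4 h, in 10% serum, with 24 h to attach before treatment. The cells of 3 arrays had received the inhibitor mixture for 4 h and those of 3 more for 24 h, and the cells of the last 3 were untreated. The mixture held the metalloprotease inhibitor GM6001 at 100 µM, the cysteine protease inhibitor E64 at 250 µM, the aspartic protease inhibitor pepstatin A at 50 µM, and aprotinin and leupeptin at 2 µM each. The sample titles give the untreated cells a vehicle without naming it, and the labels do not say when those cells were collected. The series text speaks of a kinase inhibitor where the protocol lists protease inhibitors. All 9 arrays come from this single line, so nothing here speaks for other cells, and the series text calls the 3 arrays of a group biological replicates.

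TGF-beta ligands are made as latent complexes that are held in the matrix and must be activated before they can bind. An active dimer binds a type II receptor kinase, which then phosphorylates a type I receptor kinase, and the type I receptor phosphorylates SMAD2 and SMAD3. These join SMAD4 and enter the nucleus, where the target genes include several that shut the pathway down again. In fibrosarcoma and other mesenchymal cells the pathway is known for its control of matrix genes and of motility.

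The marker genes of the line were checked first. VIM, CD44, S100A6, CDH2 and ENG were present on all 9 arrays, at intensities between 95 and 11713, while NT5E, the other mesenchymal marker, lay between 1.8 and 8.9. Epithelial, leukocyte and platelet markers stayed at or below 20.2 on every array. The summed level of the 3 endothelial markers was 39 to 58.2 at 4 h, 59.2 to 81.6 at 24 h and 25.1 to 36 in untreated cells, most of it PECAM1, and its part in the results was not tested.

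The arrays themselves also differed by group. The 24 probe sets of the poly-A control RNAs, which are added to the sample before labelling, had a mean log2 value of 10.20 ± 0.22 at 4 h, 10.64 ± 0.02 at 24 h and 9.31 ± 0.07 in untreated cells (SD, n = 3 each). The ratio of the 5′ to the 3′ probe set of ACTB, a measure of RNA integrity, was 0.615 to 0.871 at 4 h, 0.654 to 0.727 at 24 h and 0.855 to 0.922 in untreated cells. The same ratio for GAPDH was 1.049 to 1.105 at 4 h, 1.061 to 1.097 at 24 h and 1.048 to 1.049 in untreated cells, so it did not fall with treatment. Replicate 2 of the 4 h group stood apart from its group. Its score on the leading principal component (21.0% of the variance) was −13.4, where the remaining 4 h arrays scored 8.63 and 15.5 and the untreated arrays between −23.3 and −18.2. What these differences contribute to the results below was not tested.

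The promoters of INHBA and TGFBR2 are shown because these are the 2 genes that passed the test below. They come from RefSeq on GRCh38.p14 and run 5′ to 3′ over the 250 bases before an annotated start, at chr7:41703091-41703340 on the minus strand for INHBA and chr3:30606351-30606600 on the plus strand for the second of the 2 TGFBR2 starts. Capitals mark GC boxes (GGGCGG) and CCAAT boxes (CCAAT), on either strand.
INHBA promoter: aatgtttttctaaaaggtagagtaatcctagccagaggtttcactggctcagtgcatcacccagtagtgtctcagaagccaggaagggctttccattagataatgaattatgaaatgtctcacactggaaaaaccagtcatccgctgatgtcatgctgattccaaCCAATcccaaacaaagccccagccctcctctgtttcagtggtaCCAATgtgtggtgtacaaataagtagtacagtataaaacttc
TGFBR2 promoter: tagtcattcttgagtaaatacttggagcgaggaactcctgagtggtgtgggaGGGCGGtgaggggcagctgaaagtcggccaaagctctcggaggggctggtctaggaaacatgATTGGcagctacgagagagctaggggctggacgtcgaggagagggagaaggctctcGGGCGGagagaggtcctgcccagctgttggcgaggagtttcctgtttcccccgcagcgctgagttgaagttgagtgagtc
INHBA has 2 CCAAT boxes and no GC box here, and TGFBR2 has 2 GC boxes and 1 CCAAT box, read as ATTGG on this strand.

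All 10 genes matched the RefSeq promoter table, with 24 windows of 300 bases, 250 before and 50 after each start, and windows of neighbouring starts can overlap. The GC box was in 41.7% of the 24 windows and in 45% of all 35116 windows, and the CCAAT box in 37.5% and 34.6%. The SMAD palindrome GTCTAGAC was in 0 of 24 windows and 0.202% of all windows. The CAGA box CAGACA was in 20.8% of the 24 and 16.9% of all, and the AP-1 site TGACTCA in 8.33% and 4.95%. An AP-1 match lies across the annotated TGFBR2 start, at the end of the stretch printed above, beginning 6 bases before that start. The cyclic AMP response element TGACGTCA was in 1 of the 24, that of SKIL, and in 1.85% of all windows, and the TEAD site GGAATG in 8.33% and 14%. Both strands were searched, matches are letters only, and no match in these windows says nothing about a factor.

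Among the ligands, INHBA rose after 4 h. INHBA encodes the beta-A subunit that pairs to form activin A, a ligand that signals through SMAD2 and SMAD3 from its own receptors. Its representative probe set, the one with the highest mean over the arrays, read 141.2, 137.6 and 166.9 at 4 h, 78.4, 88.5 and 83.8 at 24 h, and 80.1, 75.1 and 78.9 in untreated cells. All 3 arrays at 4 h were above every untreated array and above every 24 h array, while the 24 h and untreated arrays overlapped. The change at 4 h was 0.80 ± 0.12 on the log2(intensity + 16) scale (SE, 95% confidence interval 0.55 to 1.06), or 1.75-fold, with a limma adjusted p of 0.0414. At 24 h the difference from untreated cells was 0.08 (adjusted p = 0.794), and from the 4 h cells −0.72 (adjusted p = 0.0545). In bulk RNA, a change in the share of expressing cells and a change in RNA per cell cannot be told apart.

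The call on INHBA was lost in all 9 fits that left out 1 array, controls and 24 h arrays included, where the change stayed between 0.73 and 0.85 and the adjusted p ran from 0.0505 without replicate 2 of the 4 h group to 0.189 without untreated replicate 2. A second probe set of INHBA gave 105.9, 110.4 and 126.0 at 4 h, 50.5, 44.4 and 53.2 at 24 h and 85.2, 51.1 and 53.8 in untreated cells, again with every 4 h array on top, and its adjusted p over all probe sets was 0.152. The third had a mean of 9.99, below the level used as pseudocount.

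TGFB1, the most studied of the ligands, varied between replicate arrays. It read 373.2, 760.1 and 280.0 at 4 h, 330.1, 414.2 and 486.2 at 24 h, and 674.0, 755.2 and 632.3 in untreated cells. The 3 arrays at 24 h were below all untreated arrays, but 4 h replicate 2 exceeded all of them. The log2 difference from untreated cells was −0.65 at 4 h (adjusted p = 0.436) and −0.74 at 24 h (adjusted p = 0.284), so neither passed. Without 4 h replicate 2, the 4 h difference was −1.05 (adjusted p = 0.0697) and the difference between 24 h and 4 h was 0.31 in place of −0.09. It was 0.056 without 24 h replicate 1. The second TGFB1 probe set, with a mean of 19.7, differed from untreated cells by 0.11 at 4 h and 0.003 at 24 h, with overlapping arrays.

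TGFB2, the ligand that depends most on betaglycan for binding, averaged 41.6 ± 9.7 at 4 h, 51.8 ± 6.5 at 24 h and 65.5 ± 14.1 in untreated cells (SD, n = 3 each). Its 4 h arrays read 35.4, 52.8 and 36.6, against 60.7, 81.4 and 54.5 in untreated cells, and did not overlap with them. The difference of −0.50 did not pass (adjusted p = 0.272), and the 24 h arrays overlapped with both other groups.

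Of the receptors, TGFBR2 fell at 24 h, and TGFBR1 and TGFBR3 did not pass the test. TGFBR2 encodes the type II receptor kinase to which the TGF-beta ligands bind first. Its representative probe set read 715.5, 819.8 and 699.6 at 4 h, 488.4, 577.8 and 532.4 at 24 h, and 980.4, 1106.8 and 1099.2 in untreated cells. The 3 groups did not overlap: every 24 h array was below every 4 h array, and every 4 h array was below every untreated array. At 24 h TGFBR2 was 1.97-fold lower than in untreated cells, a log2 change of −0.98 ± 0.12 (SE, 95% confidence interval −1.25 to −0.70) with a limma adjusted p of 0.0229. At 4 h the difference was −0.50 and did not pass (adjusted p = 0.149), nor did the difference of −0.47 between 24 h and 4 h (adjusted p = 0.182).

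The second TGFBR2 probe set read 52.0, 70.2 and 51.0 at 4 h, 49.1, 31.2 and 46.5 at 24 h, and 65.6, 100.0 and 76.4 in untreated cells. Its 24 h arrays also lay below all untreated arrays. In the limma fit over all probe sets, 1 of the 28 passed at 24 h, the representative of TGFBR2 (adjusted p = 0.0489), where 0.0531% of all probe sets did. At an unadjusted p under 0.05, 2 were higher and 6 lower at 24 h, beside 4014 and 3330 of all 54613 probe sets. At 4 h, 0 of 28 passed (0.0128% of all) with 10 at an unadjusted p under 0.05 (11% of all), and between 24 h and 4 h, 0 of 28 passed (0.0256% of all) with 6 unadjusted (9.5% of all). The gene-level call held when any 4 h array was left out. It was lost without any 1 of the 24 h or untreated arrays, with adjusted p between 0.0869 and 0.159 and a change between −1.03 and −0.92.

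TGFBR1, the type I receptor that carries the signal inward, varied little between replicates. It read 323.9, 298.5 and 339.1 at 4 h, 361.2, 331.2 and 374.2 at 24 h, and 288.5, 297.1 and 298.1 in untreated cells. On this probe set every treated array was above every untreated array, by 0.11 on the log2 scale at 4 h (95% confidence interval −0.13 to 0.36, adjusted p = 0.738) and 0.26 at 24 h (0.01 to 0.50, adjusted p = 0.293). Neither passed. A second TGFBR1 probe set read 21.3, 35 and 9.7 at 4 h, 30.5, 24.3 and 30.9 at 24 h, and 40.4, 31.6 and 37.7 in untreated cells, so that its 24 h arrays were all below the untreated ones. Its log2 difference was −0.52 at 4 h and −0.24 at 24 h, with adjusted p over all probe sets of 0.426 and 0.718. The third overlapped between groups at both times.

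TGFBR3 encodes betaglycan, a co-receptor that presents ligand, TGF-beta 2 above all, to the kinase receptors. It read 202.3, 143.8 and 173.3 at 4 h, 170.2, 214.5 and 205.6 at 24 h, and 123.5, 137.0 and 99.8 in untreated cells. All treated arrays were above all untreated arrays, and the 2 treated groups overlapped. The log2 difference was 0.47 at 4 h (adjusted p = 0.28) and 0.65 at 24 h (adjusted p = 0.102). A second TGFBR3 probe set averaged 145.5 at 4 h, 149.7 at 24 h and 141.7 in untreated cells, with overlapping arrays, and the test of the first against the second at 24 h gave a difference of 0.58 with an adjusted p of 0.287.

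**Figure D1:**
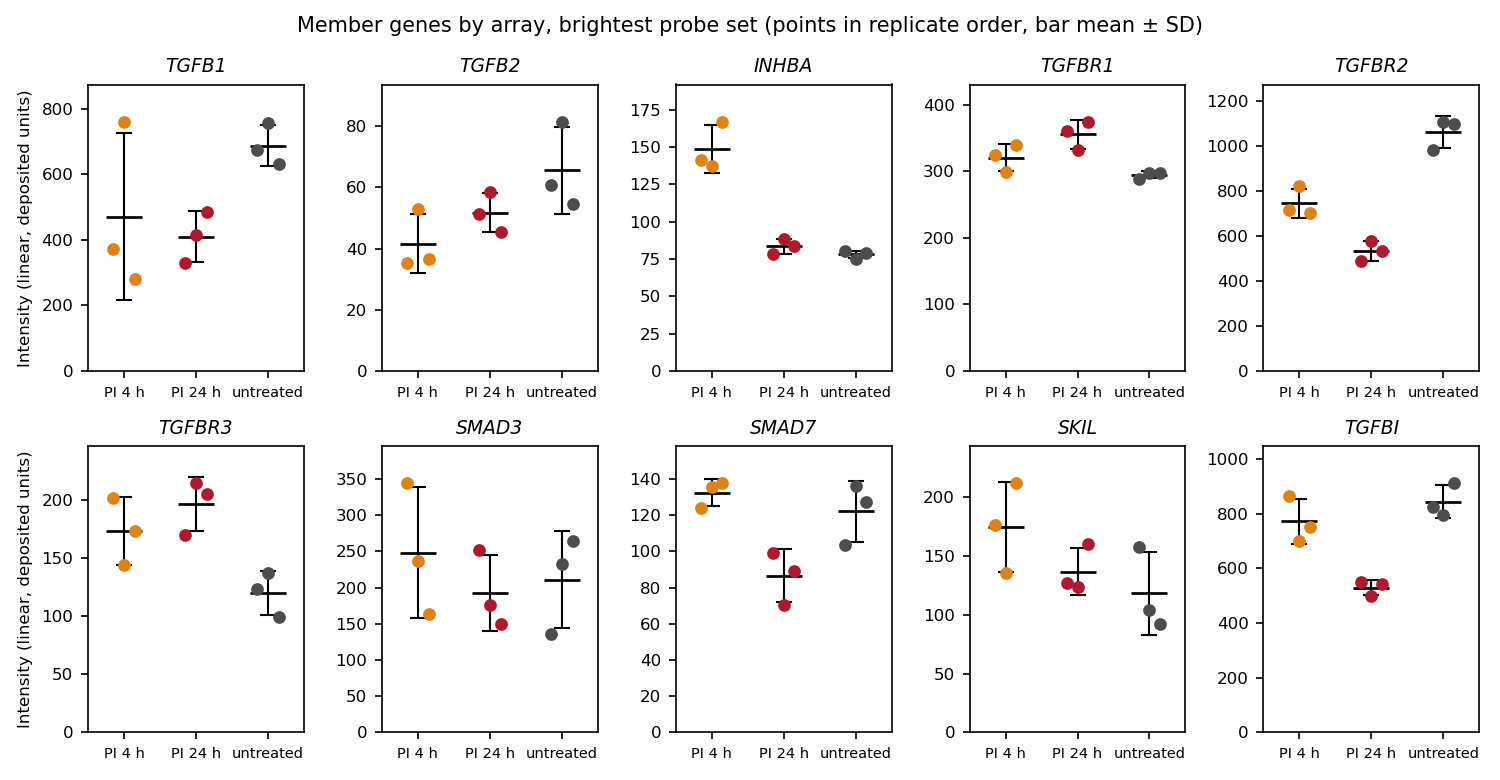
Intensity on a linear axis from 0, in the deposited units, of the representative probe set of each of the 10 genes, with a point for each array and bars for the mean ± SD of a group (n = 3), in the order 4 h, 24 h and untreated. TGFBR2 is lowest at 24 h, with a mean of 532.9, against 1062 in untreated cells, and the 3 INHBA arrays at 4 h sit above all others.

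The SMAD gene and its inhibitors did not pass the test in any comparison. SMAD3, which carries the signal to DNA, read 343.8, 237.2 and 163.7 at 4 h, 251.8, 175.4 and 150.3 at 24 h, and 136.0, 232.1 and 264.2 in untreated cells, and all groups overlapped. Its difference from untreated cells was 0.21 at 4 h and −0.10 at 24 h, with adjusted p of 0.845 and 0.913. On this representative probe set the sign turned at 4 h without 4 h replicate 1 (−0.041) or untreated replicate 1 (−0.054). It turned at 24 h without 24 h replicate 3 (0.045) or untreated replicate 3 (0.073). All 4 SMAD3 probe sets were below 0 at 24 h. Another averaged 25.7 at 24 h and 46.2 in untreated cells, and a further one 82.8 and 111.9. On each of these, every 24 h array was below every untreated array. Their log2 differences were −0.57 and −0.37, and neither passed over all probe sets (adjusted p = 0.236 and 0.480). The remaining SMAD3 probe set overlapped between these groups (−0.29). SMAD7, which blocks the type I receptor and is itself induced by the pathway, read 123.8, 135.7 and 137.6 at 4 h, 99.4, 70.6 and 89.4 at 24 h, and 103.4, 136.2 and 127.1 in untreated cells. The 24 h arrays lay below all others, with a log2 difference of −0.43 from untreated cells (adjusted p = 0.187) and −0.54 from 4 h cells (adjusted p = 0.197).

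SKIL encodes SnoN, a co-repressor that binds SMADs and is degraded on pathway activation. It read 176.2, 135.6 and 211.5 at 4 h, 127.1, 123.1 and 159.7 at 24 h, and 157.8, 103.8 and 92.4 in untreated cells, and the groups overlapped. The log2 difference was 0.52 at 4 h (adjusted p = 0.362) and 0.21 at 24 h (adjusted p = 0.696). Another SKIL probe set read 91.0, 99.0 and 82.7 at 4 h, 77.2, 78.4 and 99.3 at 24 h, and 21.2, 59.7 and 51.4 in untreated cells, with all treated arrays above all untreated ones. Set against the other SKIL probe sets it differed by 0.91 at 24 h, with an adjusted p of 0.166.

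TGFBI encodes a secreted matrix protein named for its induction by TGF-beta. It read 863.3, 701.4 and 750.6 at 4 h, 549.8, 497.4 and 540.9 at 24 h, and 823.3, 795.6 and 910.3 in untreated cells. The 24 h arrays were below all of the others, while the 4 h and untreated arrays overlapped. The difference at 24 h was −0.65 ± 0.12 (SE) against untreated cells. Its limma adjusted p of 0.0543 missed the threshold of 0.05. Of the 9 fits that left out 1 array, 1 passed, that without 4 h replicate 2 (adjusted p = 0.0419). In the others the adjusted p reached up to 0.196. Against 4 h cells the difference at 24 h was −0.53 (adjusted p = 0.141).

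**Figure D2:**
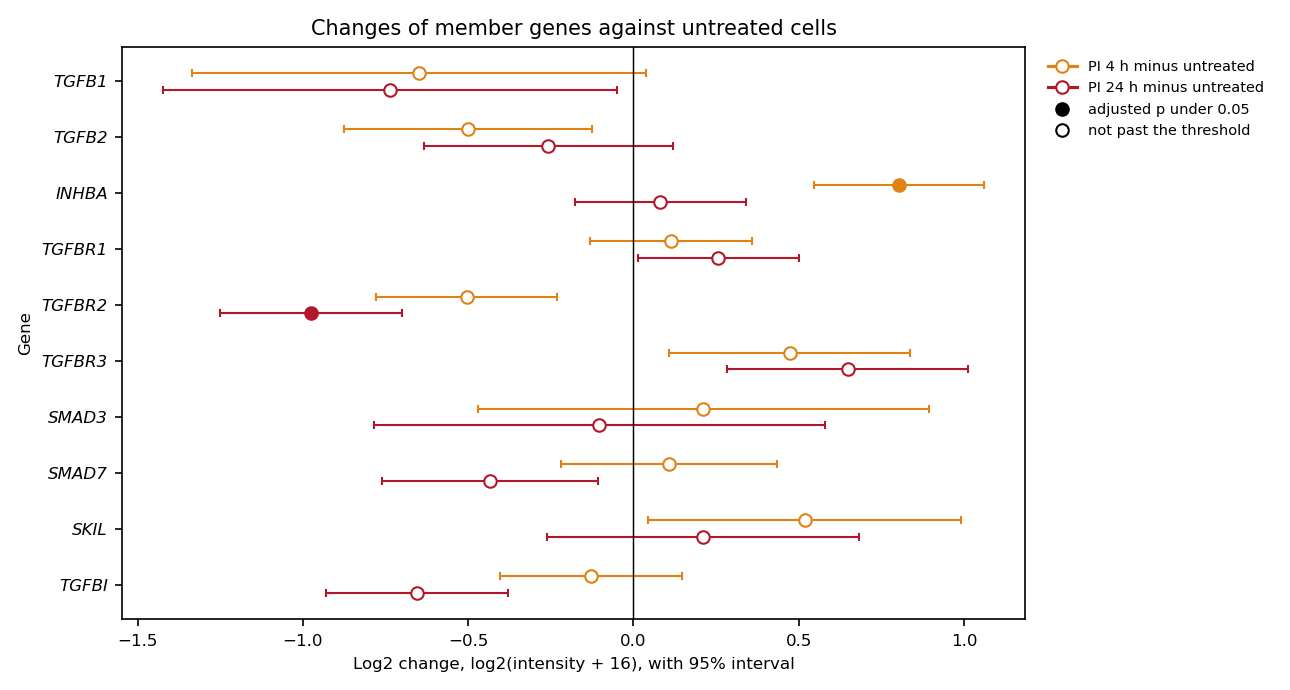
Difference in log2(intensity + 16) from untreated cells at 4 h and 24 h for the 10 genes, with 95% confidence intervals of the limma fit, filled where the adjusted p was below 0.05. INHBA at 4 h (0.80) and TGFBR2 at 24 h (−0.98) are filled.

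Counted over the 10 genes, 1 rose and 0 fell at 4 h, where 0.233% of all genes rose and 0.0152% fell (0.248% in either direction), and 0 rose and 1 fell at 24 h, where 0.217% rose and 0.248% fell (0.465% in either direction). At an unadjusted p under 0.05, limma had 3 higher and 2 lower at 4 h, and 2 higher and 4 lower at 24 h, where 12.4% and 15.8% of all genes did so in either direction. Between 24 h and 4 h, 0 of 10 passed in limma, where 0.142% of all genes did, and 4 of 10 had an unadjusted p under 0.05 (11.3% of all genes). Arrays did not overlap with untreated arrays for 5 of 10 genes at 4 h (17.5% of all genes) and 6 of 10 at 24 h (25% of all genes), and 4 of 10 did not overlap between 24 h and 4 h, all 4 lower (15.2% of all genes). The median difference over the 10 was 0.11 at 4 h, −0.18 at 24 h and −0.31 between 24 h and 4 h, beside 0.012, 0.010 and −0.0040 over all genes. The comparisons with untreated cells share the same 3 untreated arrays, so they are not separate evidence. Because the 10 were chosen with earlier results of these data known, their counts beside the shares of all genes are no independent test. In the test of any difference among the 3 groups, TGFBR2 (adjusted p = 0.0277) and INHBA (adjusted p = 0.0336) passed, where 0.668% of all genes did, and TGFBI had an adjusted p of 0.0729.

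Probe sets of the same gene were compared to see whether the gene-level values depended on the choice. In the limma test of each probe set against the others of its gene, 0 member probe sets passed at 4 h, where 0.261% of all probe sets tested did, and 0 at 24 h, where 0.49% did. At an unadjusted p under 0.05 there were 6 at 4 h (9.28% of all probe sets tested) and 4 at 24 h (11.6%). The 24 h count includes both TGFBR3 probe sets, which are a single comparison counted from either side (0.58 and −0.58). Of the 28 member probe sets, all were in this test except those of SMAD7 and TGFBI, which have 1 each. The smallest adjusted p at 4 h was 0.286, for a TGFBR1 probe set with a mean of 29.0. At 24 h both TGFBR2 probe sets had arrays all below the untreated arrays.

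**Figure D3:**
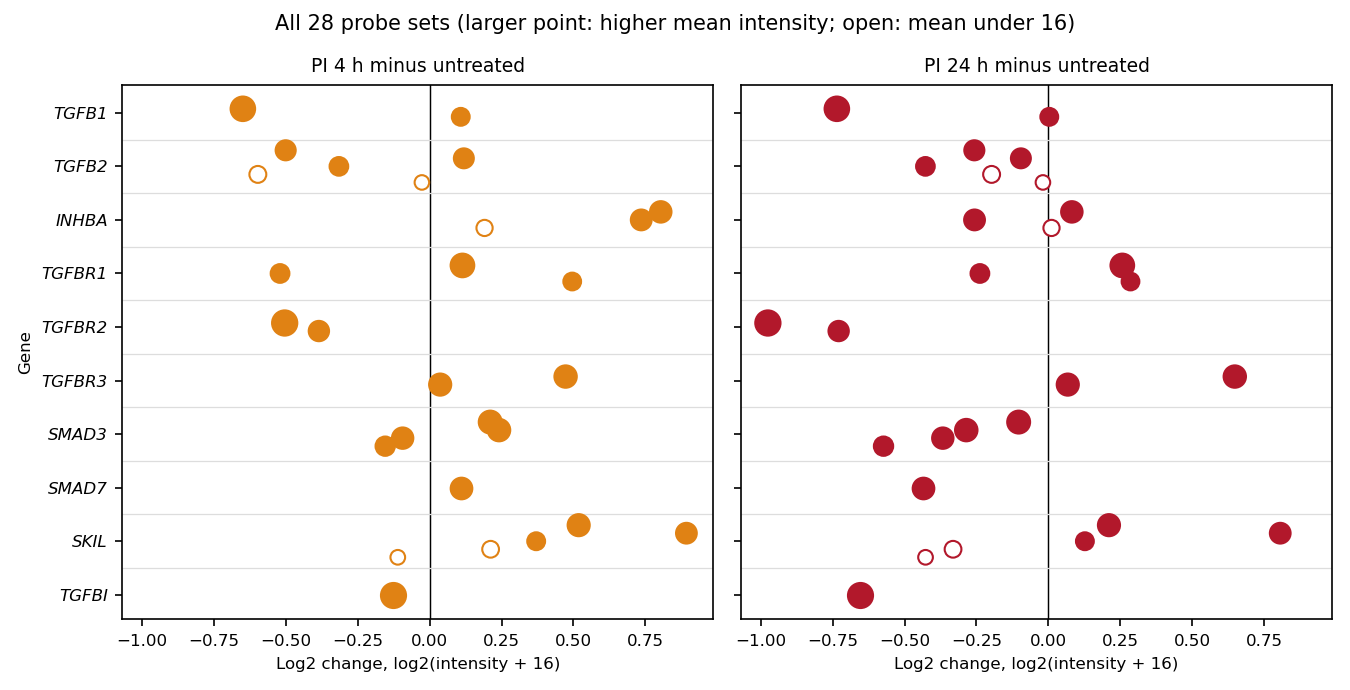
Log2 difference from untreated cells at 4 h and 24 h for each of the 28 probe sets, by gene, with point size by mean intensity and open points for means below 16. Both TGFBR2 probe sets lie below 0 at both times, at −0.98 and −0.73 at 24 h, while TGFB1, TGFBR1 and SKIL have probe sets on both sides of 0 at both times, TGFB2 and SMAD3 at 4 h, and INHBA at 24 h.

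The rest of the pathway was read from a list of 81 genes in 9 roles, of which 76 were measured and the others were not used here. This list, too, was chosen with earlier results of these data known. At 4 h, 1 of 76 rose and 0 fell in limma, with 12 higher and 9 lower at an unadjusted p under 0.05. At 24 h, 0 rose and 3 fell (7 and 12 unadjusted), and between 24 h and 4 h, 0 rose and 1 fell (2 and 18 unadjusted). Over all genes, the called shares were 0.248% at 4 h, 0.465% at 24 h and 0.142% between 24 h and 4 h, and the unadjusted shares 12.4%, 15.8% and 11.3%. The list's median difference was 0.07 at 4 h, −0.05 at 24 h and −0.09 between 24 h and 4 h. All 4 genes that passed were listed as targets.

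CCN2, a matricellular protein and a well-known TGF-beta and YAP target, rose at 4 h and was lower at 24 h than at 4 h. It read 1208.1, 1352.3 and 860.9 at 4 h, 220.6, 284.1 and 262.8 at 24 h, and 339.3, 387.9 and 422.9 in untreated cells, so that no groups overlapped. The log2 change was 1.51 at 4 h (limma adjusted p = 0.0212) and −2.07 between 24 h and 4 h (adjusted p = 0.00652), and the difference of −0.56 between 24 h and untreated cells did not pass (adjusted p = 0.174). The later call was lost when the compared groups were fitted alone (adjusted p = 0.0765). Its 4 h call was lost without 4 h replicate 1 or 2, 24 h replicate 3 or any 1 of the untreated arrays, with adjusted p between 0.0505 and 0.131.

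ID3 and ID1, which encode inhibitors of helix-loop-helix factors and respond above all to the BMP branch of the family, fell at 24 h. ID3 read 664.3, 666.8 and 639.6 at 24 h, against 1496.7, 1629.0 and 1751.2 in untreated cells, a log2 change of −1.28 (adjusted p = 0.00713). ID1 read 731.5, 704.4 and 768.6 at 24 h, against 1439.9, 1583.3 and 1406.6 in untreated cells, a change of −0.99 (adjusted p = 0.0229). SNAI2, a repressor of epithelial genes, read 368.4, 381.5 and 348.6 at 24 h, against 734.8, 742.7 and 819.5 in untreated cells, a change of −1.03 (adjusted p = 0.0229). None of the 3 passed at 4 h, where the adjusted p was 0.071 for ID3, 0.424 for ID1 and 0.0625 for SNAI2. The calls on ID1 and SNAI2 were lost without any 1 of the 24 h or untreated arrays, and that on ID3 without any 1 of the 24 h arrays or untreated replicate 2 or 3, with adjusted p of at most 0.159, 0.151 and 0.0831. TSC22D1, another induced target, was 0.32 above untreated cells at 24 h (adjusted p = 0.322). Over the 13 targets the median difference was 0.06 at 4 h and −0.33 at 24 h, with 11 of 13 below 0 at 24 h, where 48.4% of all genes were. Of those 11, 3 passed.

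**Figure D4:**
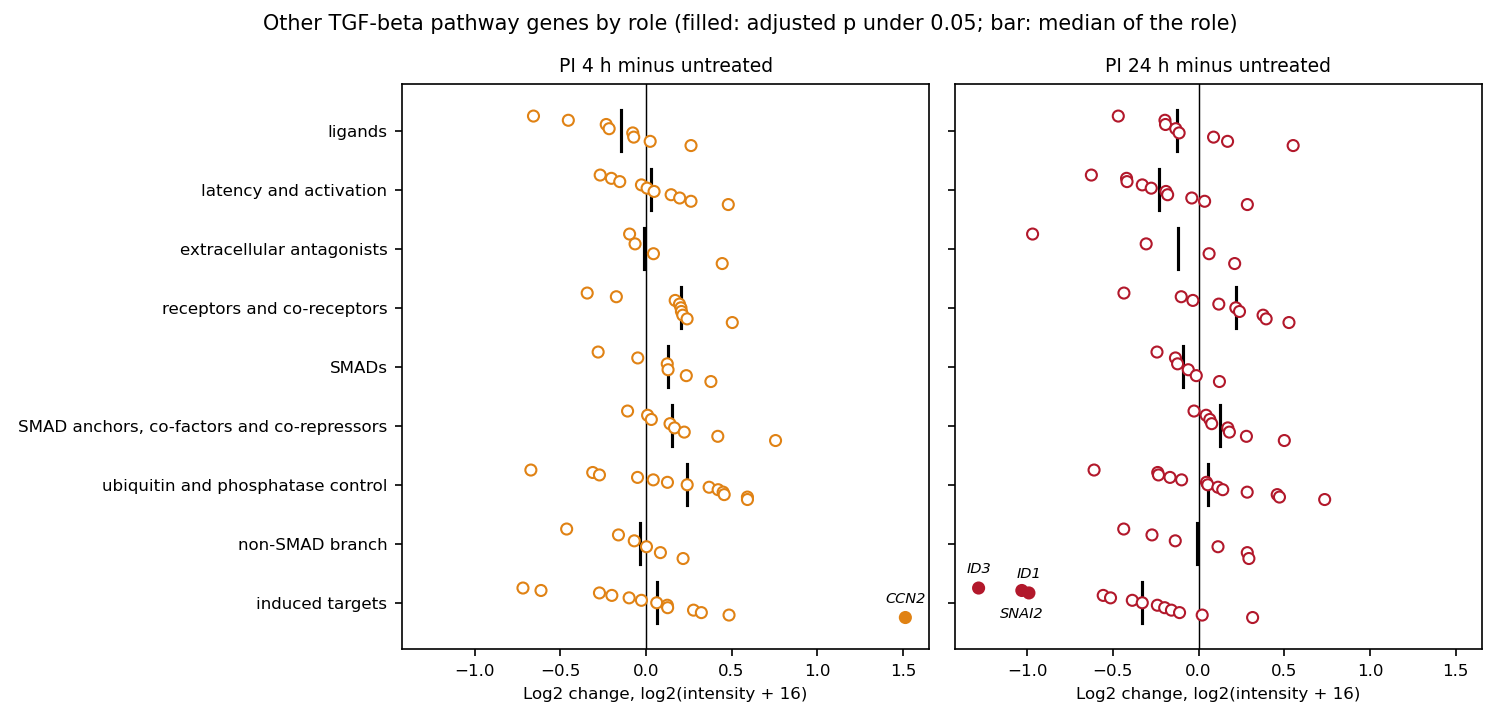
Log2 difference from untreated cells at 4 h and 24 h for the 76 pathway genes outside the 10, by role, with a bar at each role's median and the genes past the threshold filled and named. CCN2 stands at 1.51 at 4 h, and ID3, SNAI2 and ID1 at −1.28, −1.03 and −0.99 at 24 h.

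No gene of the other 8 roles passed in any comparison. Among the extracellular antagonists, FST, whose product follistatin binds activin, was 59.5 ± 5.3 at 24 h and 131.7 ± 5.8 in untreated cells (SD, n = 3 each), a difference of −0.97 with an adjusted p of 0.0558. In the latency group, LTBP3, which tethers latent TGF-beta to the matrix, averaged 43.3 at 24 h and 75.3 in untreated cells (adjusted p = 0.0978), and THBS1, an activator of latent TGF-beta, 255 and 347 (adjusted p = 0.17). USP4, a deubiquitinase of the type I receptor, averaged 400 at 24 h and 237 in untreated cells (adjusted p = 0.0872), and the ubiquitin ligase STUB1 was −0.17 from untreated cells (adjusted p = 0.549).

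The remaining roles held no call either. The other receptors had a median of 0.20 at 4 h and 0.22 at 24 h, with ACVR1, a type I receptor, at 0.12 (adjusted p = 0.664) and ACVR1C at 0.53 (adjusted p = 0.293) at 24 h. Among ligands GDF11 was at 0.09 (adjusted p = 0.88) and the inhibin subunit INHA at 0.55 (adjusted p = 0.303) at 24 h. SMAD2 and SMAD9 were at −0.13 and −0.24 (adjusted p = 0.633 and 0.507). The co-repressor TGIF1 and the co-activator CREBBP were at 0.04 and 0.50 (adjusted p = 0.93 and 0.139), and the adaptors SHC1 and TAB2 of the non-SMAD branch at −0.27 and 0.28 (adjusted p = 0.433 and 0.291).

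The 3 members with the widest range of group means on the log2 scale were taken, and the genes whose log2 values followed them were listed. The search covered the 7053 genes with a mean of at least 100, as a description over the 9 arrays, which share the group differences. ID3 (Pearson r = 0.982), NETO2 (0.980) and TOMM34 (0.976) were most like TGFBR2. ID3 averaged 1057 at 4 h, 657 at 24 h and 1626 in untreated cells, the same order as TGFBR2. GTF2B (0.986), CCNT1 (0.983) and DLC1 (0.978) were most like INHBA, and DLC1 averaged 692, 374 and 339 in the same group order. ARHGDIA (0.991), YIPF3 (0.986) and BAG6 (0.985) were most like TGFB1.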

How the data were processed

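RNA was measured on 9 one-colour Affymetrix arrays. The values are deposited intensities on a linear scale, and each array has a 2% trimmed mean of 100. Per the submitters' processing notes, R 2.9.2 and RMA were used, yet the deposited values are linear and scaled, so the summary method behind them stays unstated. The files give no detection calls, and the number of arrays limits the precision. Of 54675 probe sets, 62 are controls, 41091 name 1 gene, 1801 several, and 11721 are not listed.

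Values were taken as log2(intensity + 16), so folds understate changes of low genes. Each gene was represented by its probe set with the highest mean log2 value, the gene symbol following the platform annotation, updated through RefSeq for 41037 of the probe sets. limma 3.58.1 in R 4.3.3 fitted 1 mean per group over all 9 arrays with eBayes, two-sided, Benjamini-Hochberg over all 19775 genes, threshold 0.05. The same fit was run over 54613 probe sets, with diffSplice for probe sets of 1 gene. The fits were tested on simulated data. All 10 members are named, and of the pathway list every gene past the threshold, the one with the highest mean per role and the one with the smallest p at 24 h. The members and lists were chosen with earlier results of these data known. Alternatives changed the pseudocount, normalization, filter, arrays in the fit, replicate block and probe sets.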

Additional observations from a re-analysis of the deposited data

Results flagged for a closer look

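The poly-A control RNAs, which are no part of the gene comparisons, had a mean log2 value of 10.20 at 4 h and 10.64 at 24 h, against 9.31 in untreated cells. CCN2 differed between the treatment times by −2.07 on the log2 scale (24 h minus 4 h), a tested difference with a limma adjusted p of 0.00652. NEDD4L, a ubiquitin ligase, differed by −0.66 (24 h minus 4 h): its 4 h arrays read 2209.3, 1852.8 and 1469.8, all above the untreated arrays, and its 24 h arrays 988.8, 1211.9 and 1253.5, all below them, where untreated cells read 1295.2, 1411.3 and 1358.1. The limma test of that difference did not pass (adjusted p = 0.165).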

How the results depend on the processing

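TGFBR2 at 24 h kept its direction throughout (−1.03 to −0.85) and passed in 9 of 17 alternatives, and INHBA at 4 h (0.58 to 0.92) in 3 of 17. Of the 10 members, the reported counts were 1 at 4 h, 1 at 24 h, 0 between 24 h and 4 h and 2 for any difference. With a pseudocount of 1 there were 0 at 4 h, 0 at 24 h and 0 for any difference; with 64 there were 2 at 4 h, 3 at 24 h and 3 between 24 h and 4 h. Median centring gave 0 at 4 h and 1 for any difference. A filter at the 40th percentile gave 3 at 24 h and 1 between 24 h and 4 h. The compared groups alone gave 0 at 4 h and 2 at 24 h, and the mean over probe sets 0 at 4 h and 0 for any difference. Leaving out 1 array gave 0 to 0 at 4 h, 0 to 2 at 24 h and 0 to 2 for any difference. Of member probe sets, with reported counts of 0 at 4 h, 1 at 24 h and 0 between 24 h and 4 h, the pseudocount of 64 gave 2, 2 and 2, the filter 1 at 4 h and 2 at 24 h, and the pseudocount of 1, quantile normalization and the compared groups alone each 0 at 24 h, where leaving out 1 array gave 0 to 1. Probe sets apart from the others of their gene at 4 h numbered 1 with 64 and 0 to 2 without 1 array, against 0.

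Of the 76 pathway genes, 1 passed at 4 h, 3 at 24 h and 1 between 24 h and 4 h. The pseudocount of 1 gave 0 at 4 h and 0 at 24 h, that of 64 gave 5 at 4 h, 7 at 24 h and 7 between 24 h and 4 h, the filter 4, 7 and 5 in the same order, the compared groups alone 0 at 4 h and 0 between 24 h and 4 h, and the mean over probe sets 2 between 24 h and 4 h. Leaving out 1 array gave 0 to 1 at 4 h and 0 to 4 at 24 h. Deviations of same-numbered arrays correlated weakly, at −0.044 to 0.057 with 0 of 9 pairs above 0.1, and those of differently numbered arrays at −0.046 to 0.079. Between 4 h and 24 h, same-numbered pairs stood at 0.036, 0.037 and 0.057, and all differently numbered ones below 0. Between 4 h and untreated cells, same-numbered pairs had both signs. Between 24 h and untreated cells, same-numbered pairs stood at 0.042, 0.036 and 0.014, and differently numbered ones ran from −0.046 to 0.014. Whether the replicate numbers mark pairs was not tested. The replicate block gave 0 members at 4 h, 0 at 24 h and 0 for any difference, 0 member probe sets at 24 h, and 0 pathway genes at 4 h and at 24 h. Directions turned for INHBA at 24 h (−0.055 with the mean over probe sets), for SMAD3 without 1 array (−0.37 to 0.073 at 24 h and −0.054 to 0.46 at 4 h) and for TGFB1 between 24 h and 4 h (−0.38 to 0.31). The cause was not tested. Over all genes, calls ran over the alternatives from 2 to 273 at 4 h (49 as reported), from 0 to 826 at 24 h (92) and from 1 to 251 between 24 h and 4 h (28). The number of arrays, 3 a group, limits the precision of every value.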
